A study of Homo sapiens and Mus musculus with 24 samples.

Results

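The chromatin remodeller BRG1 and the erythroid nuclear protein hemogen were mapped in the same tissue, the liver of wild-type (WT) mouse embryos at day 14.5, and their peak lists are compared here library by library. Both hemogen libraries (antibody against the HA tag) and both BRG1 libraries (antibody against BRG1 itself) were used, which gave 4 pairs of 1 hemogen and 1 BRG1 list. These 4 lists held 143431 peaks of the 267673 in the 8 library lists of the series. The wider study has 24 samples, 12 from human K562 erythroleukaemia cells and 12 from mouse liver, including BRG1 libraries from hemogen knockout embryos, H3K27ac libraries and inputs. Its question, as its title gives it, is how hemogen and BRG1 act together on promoters and enhancers during red cell formation. The labels call the HA-precipitated livers WT and do not say how the tag came to be there, and no knockout list was used. Nothing in the labels says whether 2 libraries of a factor came from different embryos or from pooled ones. Every spread below is therefore between libraries and may be technical.

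Hemogen is a nuclear protein made mainly in blood-forming cells, and it is known for its part in erythroid differentiation. BRG1 is one of the alternative ATPases of BAF (SWI/SNF) complexes, which use ATP to slide or evict nucleosomes and so open promoters and enhancers to transcription factors. Red cells form in the fetal liver at this stage, but the organ also holds hepatocytes, macrophages and other cells. A peak list from whole liver does not say which of them carried the protein. Acetylation of histone H3 at lysine 27 (H3K27ac) is a mark of active promoters and enhancers, and its 2 WT libraries served as a further readout that the pairing of hemogen and BRG1 lists did not use.

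A peak is an interval in which the authors' peak caller found more reads than in the local background. Its fold is the enrichment over that background at the summit, the base with the highest signal. Libraries 1 and 2 held 53055 and 42866 peaks for hemogen and 26329 and 21165 for BRG1 on the 19 autosomes and chromosome X. The mean was 47960.5 ± 7205 for hemogen and 23747 ± 3652 for BRG1 (SD, n = 2 libraries each; exact two-sided permutation test, p = 0.333, the smallest that 2 against 2 libraries allow). Both hemogen lists were longer than both BRG1 lists, which bears on every share below. The lists carry no read depth. Typical peaks of the factors were of like width and fold, but hemogen had more wide ones. Median widths were 391 and 392 bp for hemogen and 377 and 348 bp for BRG1, and median folds were 4.06 and 4.12 against 4.06 and 4.22. Peaks of 1200 bp and over made up 12.2% and 11.3% of the hemogen and 9.85% and 6.83% of the BRG1 lists. The shortest peaks measured 210, 195, 187 and 176 bp in the same order, so the lists did not share 1 lower limit of width. Within each list wider peaks tended to have a higher fold, with a Spearman correlation of 0.575 and 0.506 in the hemogen and 0.515 and 0.416 in the BRG1 lists.

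Most BRG1 peaks overlapped a hemogen peak, while fewer than 50% of the hemogen peaks of a library overlapped any 1 BRG1 list. Both shares moved when the lists were trimmed to equal length, and the hemogen share then exceeded 50%. An overlap of 1 bp counted as shared. Of the BRG1 library 1 peaks, 89.6% overlapped hemogen library 1 and 82.3% hemogen library 2. Of the BRG1 library 2 peaks, 92.7% and 91.9% did. In the other direction, 35.8% of the hemogen library 1 peaks overlapped BRG1 library 1 and 27.9% overlapped BRG1 library 2, and for hemogen library 2 the shares were 45.4% and 36.4%. The lowest BRG1 share stood far above the highest hemogen share. A BRG1 list overlapped a hemogen list more often than it overlapped the second BRG1 list: 81.0% of BRG1 library 2 lay in BRG1 library 1, and 58.4% of library 1 in library 2. The hemogen lists are longer, so this order says nothing of list quality. All 4 lists were then trimmed to their 21165 peaks of highest −log10 p. The mean over the pairs went from 89.1% to 76.0% for BRG1 peaks and from 36.4% to 56.7% for hemogen peaks.

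**Figure D1:**
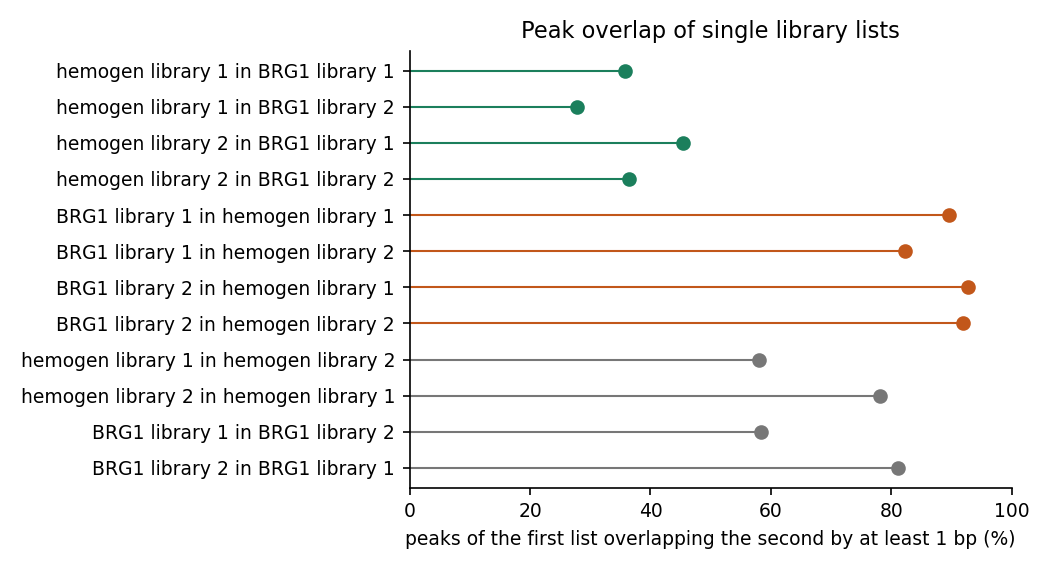
Share of the peaks of 1 library list (x axis, percent) that overlap a second list by at least 1 bp, with 1 point per ordered pair of lists. BRG1 peaks in hemogen lists (orange) sit between 82.3% and 92.7%, hemogen peaks in BRG1 lists (green) between 27.9% and 45.4%, and the 2 libraries of 1 factor (grey) between 58.1% and 81.0%.

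The share of hemogen peaks with BRG1 climbed with the width of the hemogen peak. Hemogen peaks under 300 bp held a BRG1 peak in 10.2%, 6.46%, 20.0% and 10.8% of cases in the 4 pairs (hemogen 1 with BRG1 1, 1 with 2, 2 with 1 and 2 with 2, an order kept below). At 300 to under 600 bp the shares were 24.6%, 15.8%, 37.5% and 26.6%. At 600 to under 1200 bp they were 65.2%, 49.3%, 74.7% and 65.8%. At 1200 bp and over they reached 96.5%, 90.8%, 97.4% and 95.6%. Within each of the 4 pairs the share climbed from class to class. Across pairs, only the 2 narrowest classes overlapped each other. A wide interval meets another peak more easily, so the summit base alone was also placed, which gives each hemogen peak the same size. That base lay in a BRG1 peak for 6.92%, 4.36%, 15.2% and 7.86% of the hemogen peaks under 300 bp. For those of 1200 bp and over it did so in 84.0%, 72.1%, 86.7% and 80.0%.

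With width held, the share also moved with fold, by less than it did from the narrowest to the widest class and not in 1 direction. Each list was cut into 4 fold classes of equal size. Among hemogen peaks under 300 bp, a mean over the 4 pairs of 14.8% held BRG1 in the lowest fold class and 12.5% in the highest. In hemogen library 2 with BRG1 library 1 it went from 27.1% to 17.6%, and in the pair of libraries 1 it stood at 10.95% and 13.7%. At 300 to under 600 bp the pair of libraries 1 went from 21.5% to 35.9%, and hemogen library 2 with BRG1 library 1 from 43.0% to 38.6%. At 600 to under 1200 bp these pairs went from 56.6% to 72.6% and from 77.1% to 76.2%. Among peaks of 1200 bp and over the means were 91.9% and 95.8%. A wide hemogen peak of low fold therefore held BRG1 more often, in each of the 4 pairs, than a narrow one of high fold: the lowest value of the former was 83.8% and the highest of the latter 17.6%. Without regard to width the relation to fold was not monotonic. Between the first and the fourth decile of hemogen fold the share with BRG1 fell from 19.9% to 17.6%, from 17.3% to 11.7%, from 45.1% to 30.2% and from 26.5% to 21.1% in the 4 pairs. In the tenth decile it stood at 86.5%, 76.1%, 84.0% and 82.3%. BRG1 peaks had little room to vary. Among those under 300 bp the mean share with hemogen was 77.0% in the lowest and 90.7% in the highest fold class, and at 1200 bp and over each fold class averaged 99.7% or more.

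**Figure D2:**
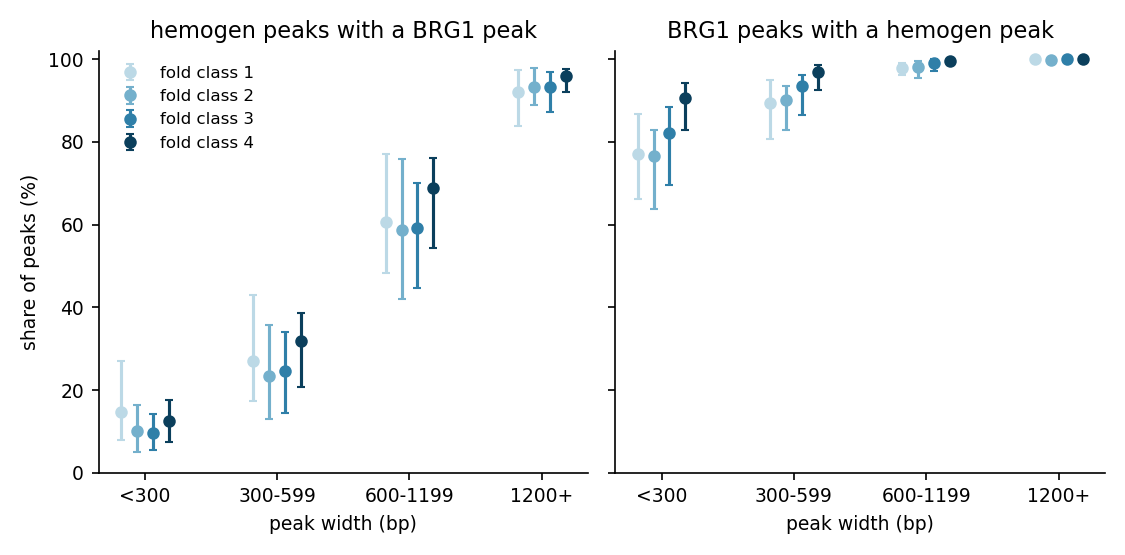
Share of hemogen peaks with a BRG1 peak (left) and of BRG1 peaks with a hemogen peak (right), in percent, by peak width in bp and by fold class within the list (1 lowest, 4 highest). Points are means over the 4 library pairs and bars run from the lowest to the highest pair; the hemogen shares climb with width, from 14.8% to 91.9% in the lowest fold class, and differ by less between the lowest and highest fold class of 1 width, as at 600 to under 1200 bp with 60.6% and 68.8%.

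At the places they shared, hemogen peaks were wider than BRG1 peaks. This held although the median widths of the whole lists were close, but sharing took the wider part of the longer hemogen lists. As means over the 4 pairs, the median width was 828 bp for hemogen peaks with BRG1 and 306 bp for those without. For BRG1 peaks with and without hemogen it was 395 and 231 bp. Widths were not compared on lists of equal length, so the part of list length was not tested. Where 1 hemogen peak met exactly 1 BRG1 peak, the hemogen peak measured a median of 1.57, 2.01, 1.37 and 1.67 times the width of its partner, and it was the wider of the pair in 84.4%, 90.2%, 74.3% and 86.7% of cases. The median widths were 708 against 374 bp in the first pair and 603 against 385 bp in the third, the pair with the smallest ratio. Between libraries of 1 factor the ratio was 1.13 for hemogen and 1.20 for BRG1, library 1 over library 2. All 4 ratios between factors lay above both. Widths went together: at such single partners the Spearman correlation of width was 0.579, 0.483, 0.508 and 0.529, against 0.615 and 0.614 between the 2 libraries of hemogen and of BRG1. These correlations run across peaks, which share libraries and neighbourhoods and are not replicates, so no p is given.

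A hemogen peak often overlapped several BRG1 peaks. Here and above, a peak held another when the 2 overlapped by at least 1 bp. A held peak could therefore reach outside its holder. Of the hemogen peaks with BRG1, 27.6%, 31.4%, 24.2% and 26.2% held 2 or more BRG1 peaks, up to 8, 11, 7 and 7. Of the BRG1 peaks with hemogen, 9.37%, 8.69%, 15.2% and 8.00% held 2 or more hemogen peaks, up to 5, 4, 6 and 4. The hemogen shares exceeded the BRG1 shares in each of the 4 pairs. Between the 2 libraries of 1 factor, library 1 peaks held several library 2 peaks in 20.8% of cases for hemogen and 20.9% for BRG1. The share that held several climbed with width. Among hemogen peaks of 1200 bp and over with BRG1, 58.6% to 59.2% held several in the 4 pairs, at 600 to under 1200 bp 20.5% to 23.9% did, and under 300 bp 1.30% to 2.61%. Where a hemogen peak held exactly 2 BRG1 peaks, the hemogen summit lay between the 2 BRG1 summits in 61.5%, 58.4%, 64.7% and 61.6% of 3947, 3233, 3722 and 3036 cases. In the gap between the 2 BRG1 peaks it lay in 13.2% to 14.7%. For a hemogen peak that held 2 peaks of the second hemogen library, the summit lay between them in 63.5% (library 1 holding library 2) and 69.3% (library 2 holding library 1) and in the gap in 12.7% and 12.6%. A position between BRG1 summits was therefore not more frequent than one between the summits of a second hemogen library.

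At overlapping peaks, hemogen and BRG1 summits lay somewhat farther apart than the summits of 2 libraries of 1 factor. Overlap itself limits the distance, and no distance expected for overlapping peaks was computed. The median distance from a BRG1 summit to the nearest summit of an overlapping hemogen peak was 202, 218, 176 and 184 bp, with quartiles from 66 to 80 bp and from 411 to 539 bp. Within 50 bp lay 17.9%, 17.0%, 20.1% and 19.7%, and within 100 bp 31.4%, 30.03%, 34.4% and 33.7%. The same distance between the 2 libraries was 134 bp for hemogen and 136 bp for BRG1. All 4 values between factors exceeded both. The gap shrank where each factor had only 1 peak: the medians were then 122, 124, 112 and 114 bp, against 92 bp for hemogen and 98 bp for BRG1 between libraries. Distance in bp hardly followed the width of the BRG1 peak below 1200 bp, so against that width it was large at narrow peaks. As a fraction of BRG1 width its median was 0.847, 0.982, 0.755 and 0.809 under 300 bp. At 1200 bp and over it was 0.155, 0.186, 0.133 and 0.155. Peaks under 300 bp had medians of 196, 218, 174 and 181 bp and those of 600 to under 1200 bp had 195, 207, 170 and 188 bp, while those of 1200 bp and over had 261.5, 291, 228.5 and 247 bp.

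To hold the places fixed, regions were formed by merging overlapping peaks of the 4 lists, and those with exactly 1 peak in each list were taken. There were 2129 of them among 57552 regions. On these the median summit distance was 113, 113, 115 and 109 bp between factors, 106 bp between the BRG1 libraries and 92 bp between the hemogen libraries. The distances between factors stood just above the one between the BRG1 libraries. With the mean position of both summits of each factor it was 87.5 bp. Hemogen was again wider, with median widths of 802 and 716 bp against 456 and 347 bp, and both its peaks were wider than both BRG1 peaks at 67.3% of the regions. The reverse held at 1.69%, and here too the part of list length was not tested.

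**Figure D3:**
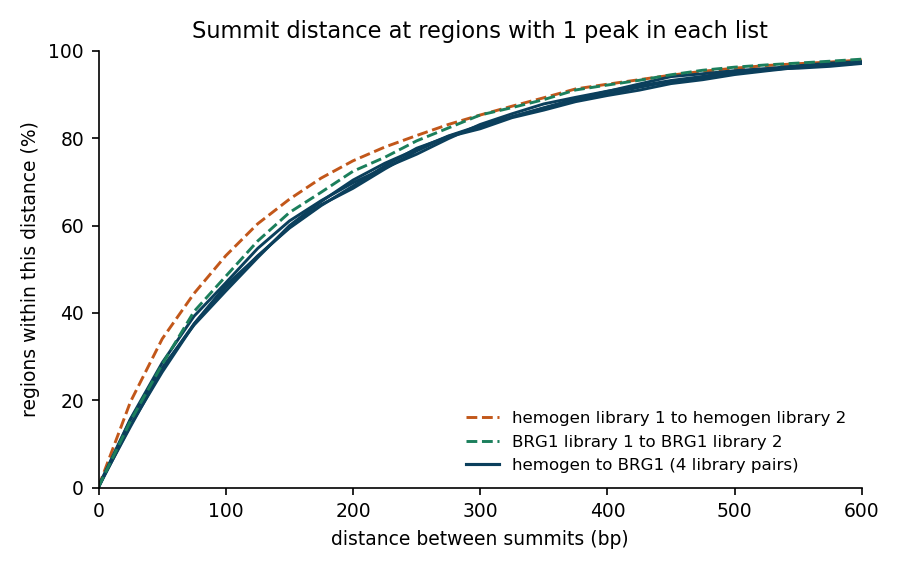
Cumulative share (y axis, percent) of the 2129 regions with exactly 1 peak in each of the 4 lists whose summits lie within a given distance in bp (x axis). The 4 solid lines between hemogen and BRG1 run together, with medians of 109 to 115 bp, close to the dashed line of the 2 BRG1 libraries (106 bp) and below that of the 2 hemogen libraries (92 bp).

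Between hemogen and BRG1, the fold of a shared peak went with the library number more than with the factor. Fold was ranked within each whole list. Across overlapping peaks the Spearman correlation of hemogen with BRG1 fold rank was 0.296 for libraries 1 with 1 and 0.274 for libraries 2 with 2. It was 0.113 for hemogen 1 with BRG1 2 and 0.118 for hemogen 2 with BRG1 1. Both pairs of equal number stood above both pairs of unequal number. They also stood above the 2 libraries of 1 factor, which gave 0.220 for hemogen and 0.150 for BRG1. The split recurred on each of the 20 chromosomes, in each of the 4 classes of BRG1 width and in each of the 4 classes of hemogen width: in all of these both equal-number values exceeded both others. In BRG1 peaks of 1200 bp and over, for example, the values were 0.243 and 0.242 for equal and 0.0630 and 0.0789 for unequal numbers.

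The H3K27ac libraries showed the same split. Hemogen and H3K27ac gave 0.140 and 0.145 at equal and 0.0308 and 0.0191 at unequal numbers, and BRG1 and H3K27ac gave 0.179 and 0.193 against 0.0312 and 0.0262. The 2 H3K27ac libraries gave 0.105 with each other. All equal-number values with H3K27ac stood below the 0.220 of the 2 hemogen libraries, and those of hemogen also below the 0.150 of the 2 BRG1 libraries. Over the 3 pairs of targets the mean was 0.204 at equal and 0.0564 at unequal numbers, with 6 values each. The library numbers of the 3 targets can be matched in 4 ways. The labelled way gave the largest lead of equal over unequal numbers, at p = 0.25 in an exact one-sided permutation test of the numbers, the smallest it can give. The lead was examined after the data were seen, so this p lends it no support. The sources used here do not say what libraries of 1 number share, and its part in these values was not tested. The peak names inside the hemogen lists carry the numbers 3 and 4, while the labels number these libraries 1 and 2. In the BRG1 and H3K27ac lists the names carry 1 and 2 as the labels do.

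Other measures followed the number less or not at all. With peaks ranked by −log10 p in place of fold, the 4 pairs gave 0.330, 0.221, 0.220 and 0.270, so the lead of equal numbers shrank from 0.170 to 0.0795. Both libraries of 1 factor then stood at 0.378 for hemogen and 0.315 for BRG1. The correlation of width at single partners was 0.554 on average at equal and 0.496 at unequal numbers. Summit distance at single partners averaged 118 bp at equal and 118 bp at unequal numbers. On the 2129 regions with 1 peak in each list, fold correlated at 0.452 and 0.377 for equal and at 0.150 and 0.189 for unequal numbers. The 2 hemogen libraries there reached 0.419, between the equal-number values, and the 2 BRG1 libraries 0.188.

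**Figure D4:**
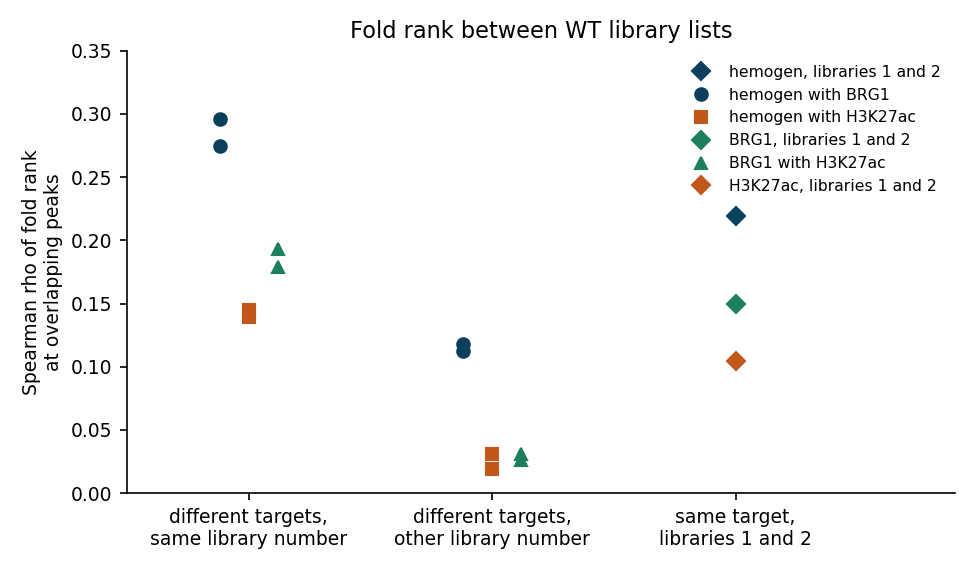
Spearman correlation of within-list fold rank across overlapping peaks (y axis) for the 15 pairs of WT library lists, by whether the 2 lists have different targets and the same library number, different targets and other numbers, or the same target. For each pair of targets the equal-number values lie above the unequal ones, 0.274 and 0.296 against 0.113 and 0.118 for hemogen with BRG1.

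Hemogen peaks without BRG1 were narrower, weaker and less often acetylated than those with it. In hemogen library 1, 31989 peaks (60.3%) overlapped no peak of either BRG1 library, and in library 2 21311 (49.7%). Their median width was 300 and 287 bp, against 780 and 643 bp for the peaks with BRG1 in at least 1 library. Their median fold percentile was 39.7 and 41.7, against 71.9 and 62.4. An H3K27ac peak of either library met 17.3% and 18.2% of them, against 73.7% and 73.3% of those with BRG1. With the H3K27ac list that the authors called for both libraries, the shares were 28.6% and 30.9%, against 84.1% and 83.6%. The second hemogen library held 37.8% and 60.7% of them, against 88.8% and 95.2% of those with BRG1. They lay a median of 8112 and 5853 bp from the nearest BRG1 summit, and 43.1% and 47.9% had one within 5 kb. The longer BRG1 group list, called by the authors for both libraries, left 26683 and 16486 of them without BRG1 (50.3% and 38.5% of the hemogen lists). Strong exceptions existed but were few. In the top decile of fold stood 602 and 458 of the peaks without BRG1, against 4721 and 3835 of those with it. Of the former 157 and 62 measured 1200 bp or more, against 6300 and 4792 of the latter.

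BRG1 peaks without hemogen were few, also narrower and weaker than those with it, but near hemogen. In BRG1 library 1, 1883 peaks (7.15%) overlapped neither hemogen library, and in library 2 724 (3.42%). Their median width was 231 and 214 bp and their median fold percentile 29.5 and 32.3, against 399 and 358 bp and 52.3 and 51.1 for those with hemogen. A hemogen summit lay within 1 kb of 66.8% and 72.5% of them and within 5 kb of 93.0% and 94.1%, at a median of 731 and 686 bp. None of them reached 1200 bp (0 in both libraries), against 2594 and 1445 of those with hemogen. In the top decile of fold stood 5 and 4 of them, against 2628 and 2105 of those with hemogen. The other BRG1 library held 10.5% and 32.9% of them. Against the hemogen group list 806 and 266 still had none (3.06% and 1.26% of the BRG1 lists). Of 57552 merged regions, 129 (0.22%) had a peak in both BRG1 libraries and in no hemogen library. In both hemogen libraries and in no BRG1 library 9838 (17.1%) had one, and 10285 (17.9%) had one in all 4 lists. The median widths of these 3 sets were 385, 526 and 1760 bp.

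Acetylation differed more between hemogen peaks with and without BRG1 than between BRG1 peaks with and without hemogen. Of all hemogen peaks, 39.7% and 45.9% in libraries 1 and 2 overlapped an H3K27ac peak of either library. Hemogen peaks with BRG1 did so in 76.1%, 81.7%, 75.7% and 80.7% of cases and those without in 19.4%, 23.5%, 21.2% and 25.9%. The gap remained when width was held. Under 300 bp the shares were 58.7%, 65.1%, 62.7% and 68.1% with BRG1 and 15.6%, 16.9%, 16.4% and 20.5% without. At 1200 bp and over they were 92.7%, 93.9%, 93.3% and 93.7% with and 47.1%, 64.4%, 56.8% and 62.1% without. Combinations of width class and fold class with at least 20 peaks on both sides numbered 60 over the 4 pairs, and the share was higher with BRG1 in 60 of 60, by 17.3 to 51.9 percentage points.

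The same split of BRG1 peaks by hemogen gave no such gap. Of all BRG1 peaks, 66.7% and 71.9% overlapped H3K27ac. In the 4 pairs the shares were 67.8%, 72.8%, 68.8% and 72.3% with hemogen (BRG1 1 with hemogen 1, 2 with 1, 1 with 2 and 2 with 2) and 57.7%, 60.2%, 57.3% and 68.0% without. With width held, the direction depended on the class. Under 300 bp the share with hemogen minus that without was −7.09, −0.36, −5.15 and −9.86 percentage points. At 300 to under 600 bp it was −8.08, 1.13, −5.43 and −6.88 points. At 600 to under 1200 bp it was 11.7, 14.7, 3.37 and 14.7 points, with 40, 18, 134 and 18 peaks without hemogen. Of 36 combinations of width and fold class with at least 20 peaks on both sides, 8 were higher with hemogen. Their differences ran from −16.2 to 9.37 points, with a median of −4.54 points. At 600 bp and over, only BRG1 library 1 with hemogen library 2 had enough peaks without hemogen. The 36 combinations therefore mostly describe peaks under 600 bp. No test over libraries was made of these shares, and peaks are not replicates. The split of BRG1 peaks was not repeated on lists of equal length. The part of list length in the contrast with hemogen peaks was therefore not tested.

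**Figure D5:**
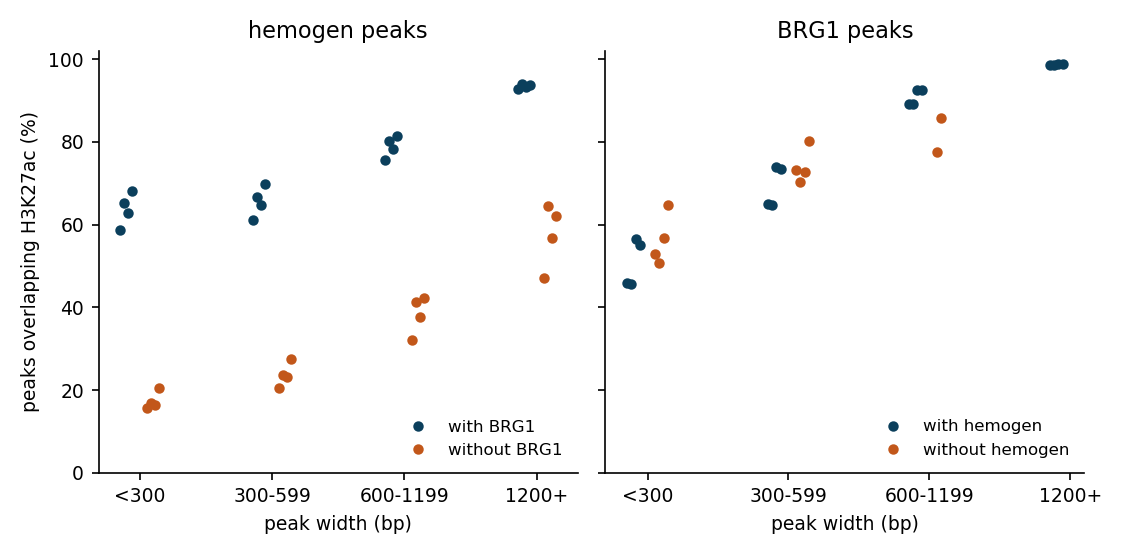
Share of hemogen peaks (left) and BRG1 peaks (right) that overlap an H3K27ac peak of either library (y axis, percent) by peak width in bp, for peaks with (blue) and without (orange) the other factor; each point is 1 of the 4 library pairs with at least 20 peaks. On the left the blue points lie above the orange ones in each width class, and on the right they do so at 600 to under 1200 bp but not under 300 bp, while at 1200 bp and over no pair has 20 peaks without hemogen.

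By chromosome the shared fraction varied within narrow limits, with chromosome X at the low end. The share of BRG1 library 2 peaks in hemogen library 2 was 82.8% on X and 89.4% to 95.8% on the autosomes, lowest on chromosome 8 and highest on chromosome 18. In BRG1 library 1 with hemogen library 2 it was 72.1% on X and 79.3% to 85.9% on the autosomes. X was the lowest chromosome in 3 of the 4 pairs and the third lowest, at 87.6%, for libraries 1 with 1. X was also low between the BRG1 libraries: 64.5% of BRG1 library 2 peaks on X lay in BRG1 library 1, against 78.2% to 84.2% on the autosomes. X also had the fewest peaks of any chromosome, 944 and 750 for hemogen and 402 and 290 for BRG1. Its median BRG1 widths of 298 and 262.5 bp lay below those of the autosomes, as did the 352.5 bp of hemogen library 2, while the 377.5 bp of hemogen library 1 lay within their range of 372 to 412 bp. Seen from hemogen, chromosome 11 had the highest share with BRG1 in each of the 4 pairs, at 40.6%, 31.0%, 50.5% and 40.1%, and chromosome 6 the lowest of the autosomes, at 32.0%, 24.9%, 40.7% and 32.6%. Summit distances on X were the shortest in each of the 4 pairs, at 162.5, 160.5, 151.5 and 129 bp.

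Single regions are given by position, 1-based, with no gene assigned. No source used here names the build, and the positions fit mm10. The region with the highest mean fold percentile in all 4 lists lay at chr4:87803393-87808080. Its highest folds were 14.3 and 11.2 in the hemogen libraries and 8.95 and 10.2 in the BRG1 libraries. It overlapped no H3K27ac peak of either library, though it did overlap the longer H3K27ac group list. The next 4, chr16:32607730-32613607, chr5:121215268-121217119, chr1:33754337-33758735 and chr15:9071285-9080752, all overlapped H3K27ac in both libraries. Their hemogen folds ran from 10.4 to 12.2 and their BRG1 folds from 8.07 to 9.61. The last of them spanned 9468 bp and held 5 and 4 hemogen but 7 and 10 BRG1 peaks.

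The strongest hemogen regions with no BRG1 library peak reached folds near those of the strongest shared regions. Those at chr1:66900516-66901632 and chr1:65090361-65090903 had folds of 10.7 and 9.29 and of 12.01 and 8.87 in libraries 1 and 2, and neither overlapped H3K27ac. Those at chr11:111687352-111688391, chr16:84806145-84806787 and chr6:7782598-7783850 had folds from 7.57 to 9.92, and the first of these 3 overlapped H3K27ac in both libraries. The region on chromosome 16 also lacked a peak of the BRG1 group list, while the other 4 had one. The strongest BRG1 regions with no hemogen library peak had lower folds. Nothing is read from this, since they were drawn from 129 regions and those of hemogen from 9838. The first of these BRG1 regions, chr14:115041340-115041796, had folds of 5.55 and 7.16. It overlapped H3K27ac in both libraries and had no peak in the hemogen group list. The second, chr17:6316787-6317061, had 4.49 and 6.41, no H3K27ac and a peak in the hemogen group list. The other 3, at chr2:179975923-179976216, chr6:5294982-5295491 and chr12:24877469-24877861, had folds from 4.39 to 4.96. Of these, the region on chromosome 2 had no peak in the hemogen group list, and those on chromosomes 6 and 12 had one.

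Among regions with 1 peak in each list, hemogen stood at a higher within-list percentile than BRG1 in all 4 pairs at 801 of 2129 (37.6%) and BRG1 above hemogen at 147 (6.9%). Shared peaks rank high in the longer hemogen lists, with a median percentile of 62.8 to 77.0 in the 4 pairs, so nothing is read from the unequal counts. Of these 2 sets, 69.0% and 90.5% overlapped H3K27ac of either library, against 77.5% of the 2129. The widest lead of hemogen among regions of at most 1 kb lay at chr5:123222879-123223582, with hemogen folds of 5.81 and 9.84 and BRG1 folds of 2.79 and 3.08. It was followed by chr11:46241042-46241780, with 5.86 and 7.61 against 3.04 and 2.75. The widest lead of BRG1 lay at chr5:31180165-31180641, with BRG1 folds of 4.55 and 4.82 and hemogen folds of 2.51 and 2.36, which rank below the first percentile of both hemogen lists. The region chr6:120179110-120179780 came next, with 4.21 and 4.09 against 2.51 and 2.44. Its lead rested on hemogen ranks near the bottom of the lists more than on BRG1 ranks, which stood at 55.5 and 45.3.

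The regions with the most peaks of either factor, chosen for that number, are given as a description. At chr15:79681800-79695973, 14174 bp wide, BRG1 had 11 and 16 peaks and hemogen 4 and 7. At chr11:24075741-24082368 BRG1 had 7 and 11 peaks and hemogen 5 and 10, which also made it the region with the most hemogen peaks. At chr6:38916237-38925398 they had 5 and 10, and 6 and 6. The regions chr7:80202787-80212136 and chr11:96940450-96947070 followed in hemogen peaks, with 4 and 9 and with 1 and 8, beside 5 and 9 and 5 and 7 BRG1 peaks. Library 2 had at least as many peaks as library 1 of its factor in all 5 of these regions, and all 5 overlapped H3K27ac in both libraries.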

How the data were processed

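The authors deposited 1 peak list per library and 1 per group, without header. The submitters' processing notes list MACS2 2.2.7.1, Bowtie2 2.3.5, Picard 2.21.4 and SAMtools 1.9 without saying what each did. The sources used here give no control, read filter or depth, so precision beyond the spread between libraries is unknown. For every peak the authors' lists hold the fold over background (a ratio), p and q as −log10 values, and the summit's offset from the start. These are the authors' values and were used to rank or filter peaks inside 1 list. Folds were also set side by side between lists, without scaling. This applies to the median folds, the folds of single regions and the log2 fold differences between library 1 and 2. Groups and numbers came from the titles.

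Between 1 and 8 peaks per WT hemogen and BRG1 list, on other sequences, were left out. Percentiles are ranks within a list. Correlations are Spearman values over overlapping peaks. Overlaps were tested against a direct comparison for hemogen library 1 with BRG1 library 1 on chromosome 19 (1938 hemogen peaks, 990 overlaps, 0 differences). Scripts ran in Python 3.11.15 with pandas 2.3.3 and NumPy 2.4.6; SciPy 1.17.1 gave ranks and Matplotlib 3.10.9 the plots.

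Regions are named by rule: per class the 5 strongest (3 for most peaks), by mean or lead of within-list fold percentile. The members, lists and rules were chosen with earlier results of these data known. Mouse gene positions and sequence were not used here, so start sites, gene lists and cell type markers were not analysed.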

Additional observations from a re-analysis of the deposited data

How the results depend on the processing

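Of 136 alternatives over 14 results, 134 kept their direction and 100 stayed within tolerance. This was 1 SD of the 4 pairs, or of its 4 single differences for the lead of equal library numbers. For the 3 values per list it was an unchanged sign of the difference, whatever its size. Both counts were partly fixed: shares and the summit distance could not change sign. A mean over the 4 pairs always stays within 1 SD when 1 library is left out or only equal numbers are kept. The share of BRG1 peaks with hemogen (main mean 89.1%) was 83.1% at an overlap of 50% of the shorter peak, 76.0% with lists trimmed to equal length and 80.6% with the summit base inside the other peak. The share of hemogen peaks with BRG1 (36.4%) was 56.7% trimmed, 27.4% by the summit base and 29.2% on group lists. The fold rank correlation (0.200) was 0.303 with 1 peak on each side only and 0.328 on group lists, and that of width (0.230) was 0.525 and 0.325. Hemogen peaks holding several BRG1 peaks (27.3%) came to 23.6% at 50% overlap, 21.0% at a minimum −log10 q of 5, 31.4% trimmed and 38.3% on group lists. BRG1 peaks holding several hemogen peaks (10.3%) came to 3.60% at 50% overlap, 5.89% trimmed and 4.32% on group lists. The summit distance (195 bp) was 229 bp trimmed, 118 bp with 1 peak on each side and 258 bp on group lists. The fold percentile gap of hemogen peaks with BRG1 (29.2) was 18.1 trimmed, 39.1 by −log10 p rank and 39.4 on group lists. That of BRG1 peaks with hemogen (20.3) was 16.3 at a −log10 q of 5, 28.5 by −log10 p rank and 26.6 on group lists. The H3K27ac difference of hemogen peaks with against without BRG1 (56.1 points) was 50.9 at a −log10 q of 5, 53.0 trimmed and 57.9 on group lists. The lead of equal library numbers in fold rank (0.170), examined after the data were seen, was 0.194 at a −log10 q of 5, 0.186 with 1 peak on each side and 0.0795 by −log10 p. The median fold of hemogen minus BRG1 lists (−0.05) turned to 0.054 at a −log10 q of 5 (exact permutation p = 1) and to 0.027 without BRG1 library 2. Trimming and 50% overlap change which peaks can meet by construction, and for all else the cause was not tested.

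Leaving out 1 library at a time gave 86.0% to 92.3% for BRG1 peaks with hemogen, 31.8% to 40.9% for hemogen peaks with BRG1, 0.193 to 0.207 for the fold rank and 0.216 to 0.244 for the width correlation. It gave 25.2% to 29.5% and 8.35% to 12.3% for hemogen and BRG1 peaks holding several, 180 to 210 bp for summit distance, and 23.9 to 34.6 and 18.0 to 22.6 for the percentile gaps of hemogen and BRG1. The H3K27ac difference ran from 54.7 to 57.5 points, the lead of equal numbers from 0.156 to 0.183, the difference in peak number from 19119 to 29308, that in median width from 14.5 to 43.5 bp and that in median fold from −0.14 to 0.027.

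With the replicate block (pairs of equal number only) the fold rank correlation was 0.285, the BRG1 share 90.8% and the hemogen share 36.1%. For the peak number per list the block gave a difference of 24213.5 at p = 0.5 in an exact sign-flip permutation test, the smallest it allows. Equal numbers have no stated meaning, so they were not taken as pairs. On the 2129 regions with 1 peak per list, the difference in log2 fold between library 1 and 2 of hemogen correlated at 0.376 with that of BRG1. Start-site counts and gene lists were not run, and without depth no detection limit was set.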
